A study of Rattus norvegicus with 6 samples.

Results

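The *Zfp* genes of the rat are zinc finger genes that carry the symbol *Zfp* followed by a number. They were taken here as every gene whose name in the expression tables begins with *Zfp* and a digit. This gave 179 of the 17337 gene names listed. PolyA RNA was sequenced from cortical neural progenitors of Sprague Dawley rats at embryonic day 14. The cells came from dissected cortices, were grown with bFGF and EGF and were harvested after a second passage, and the labels name no treatment or genetic change. There were 2 biological replicates, A and B, each sequenced as 2 technical libraries (A1, A2, B1 and B2). Levels are in FPKM, which are fragments scaled for transcript length and library depth, and were averaged over the technical libraries of each replicate. Where single libraries are given, the value of technical library 1 comes first. Means are given with the SD over replicates A and B (n = 2). All libraries share 1 condition, so values are described and no test between conditions was possible.

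Most zinc finger proteins with a *Zfp* symbol bind DNA through arrays of fingers in which cysteines and histidines hold a zinc ion. A large vertebrate subclass joins these fingers to a KRAB domain, which recruits the corepressor encoded by *Trim28* and with it histone methylation and silencing, often at transposable elements. Other members use their fingers to bind RNA. Of these, the *Zfp36* family binds AU-rich elements of mRNAs and brings in the CCR4-NOT deadenylase, which shortens the polyA tail. The symbol therefore groups genes by the presence of zinc fingers and not by 1 shared function.

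Nearly all *Zfp* genes were transcribed into polyA RNA in these cells, at moderate levels. A mean of at least 1 FPKM was reached by 169 of the 179 *Zfp* genes (94.4%), beside 10481 of all 17337 genes (60.5%). At least 10 FPKM was reached by 85 *Zfp* genes (47.5%), beside 38.3% of all genes. Few were abundant, since 3 *Zfp* genes (1.68%) were at 100 FPKM or more, beside 6.14% of all genes. The range from 1 to 100 FPKM held 166 of them (92.7%), beside 54.3% of all genes. Together the *Zfp* genes made up 0.527% of the summed FPKM.

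The promoters of 5 members are shown because they differ in the number of CG dinucleotides and in the mRNA level. *Zfp36l1* and *Zfp207* are among the 10 highest members, and *Zfp467* has few CG dinucleotides and a level above the members' median. *Zfp352* and *Zfp474* have the lowest means. All 5 were chosen after their values were seen. Each window runs from 250 bases before to 50 bases after the start of the gene in RefSeq, on the GRCr8 assembly, and is written 5′ to 3′ on the strand of the gene with every CG in capitals. *Zfp36l1* (chr6:104668641-104668940, minus strand) encodes an mRNA decay factor and had a mean of 102.3 FPKM. *Zfp207* (chr10:65883380-65883679, plus strand) encodes a spindle assembly protein that binds Bub3 and had a mean of 80.6 FPKM. *Zfp467* (chr4:78723086-78723385, minus strand) had a mean of 15.2 FPKM. *Zfp352* (chr5:110061792-110062091, plus strand) is known from the early mouse embryo and was listed at 0 in every library. Its gene is on the minus strand in rn6 and on the plus strand in GRCr8. *Zfp474* (chr18:48239307-48239606, plus strand) had a mean of 0.00141 FPKM.
Zfp36l1: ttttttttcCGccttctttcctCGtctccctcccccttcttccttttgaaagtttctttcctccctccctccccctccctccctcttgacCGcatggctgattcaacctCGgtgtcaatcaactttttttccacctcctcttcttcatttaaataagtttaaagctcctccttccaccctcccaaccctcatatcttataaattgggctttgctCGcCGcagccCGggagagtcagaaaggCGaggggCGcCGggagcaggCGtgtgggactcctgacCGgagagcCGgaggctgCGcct
Zfp207: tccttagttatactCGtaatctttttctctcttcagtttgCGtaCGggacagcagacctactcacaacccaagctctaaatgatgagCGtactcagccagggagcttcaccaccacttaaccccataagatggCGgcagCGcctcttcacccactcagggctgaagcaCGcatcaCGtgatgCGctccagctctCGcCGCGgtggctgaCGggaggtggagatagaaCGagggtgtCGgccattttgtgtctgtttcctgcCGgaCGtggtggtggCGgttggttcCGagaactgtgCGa
Zfp467: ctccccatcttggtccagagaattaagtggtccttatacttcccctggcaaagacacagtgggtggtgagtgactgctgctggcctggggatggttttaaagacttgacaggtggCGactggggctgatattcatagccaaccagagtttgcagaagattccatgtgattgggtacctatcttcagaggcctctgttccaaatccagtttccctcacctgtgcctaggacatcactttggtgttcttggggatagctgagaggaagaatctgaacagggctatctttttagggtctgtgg
Zfp352: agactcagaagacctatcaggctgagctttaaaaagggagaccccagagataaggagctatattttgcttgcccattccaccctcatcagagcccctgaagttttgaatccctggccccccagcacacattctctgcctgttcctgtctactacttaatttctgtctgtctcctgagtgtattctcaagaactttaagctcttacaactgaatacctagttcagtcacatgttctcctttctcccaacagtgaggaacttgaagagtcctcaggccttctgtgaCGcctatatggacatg
Zfp474: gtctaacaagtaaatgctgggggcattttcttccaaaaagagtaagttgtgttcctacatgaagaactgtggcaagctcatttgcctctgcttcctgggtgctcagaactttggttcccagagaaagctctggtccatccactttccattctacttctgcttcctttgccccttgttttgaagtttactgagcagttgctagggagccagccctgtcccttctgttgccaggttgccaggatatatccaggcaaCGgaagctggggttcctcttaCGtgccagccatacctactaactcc
The window of *Zfp36l1* held 14 CG dinucleotides and that of *Zfp207* held 20. The windows of *Zfp467* and *Zfp352* held 1 each, and that of *Zfp474* held 2. Member windows held from 1 to 52, so the upper part of this range is not shown.

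The depth behind these values was uneven. The median coverage (mean read depth over the transcript) per FPKM over all genes was 24.3 in A1, 22.7 in A2 and 24.4 in B1, and 6.83 in B2. Of the 169 *Zfp* genes at 1 FPKM or more, 162 lay within 0.05 times the median of this value in each library. *Zfp260*, *Zfp622*, *Zfp697*, *Zfp7* and *Zfp74* lay at 0.5 times the median wherever they were above 0 (12.2 in A1), so their FPKM is higher for the same coverage than that of most members, and the cause was not tested. The median coverage of the *Zfp* genes at 1 FPKM or more was 244 to 265 in A1, A2 and B1 and 63.9 in B2. Total read numbers were not given in the tables. Markers of mesenchymal and meningeal cells (10 genes, among them *Col3a1*) also separated the replicates: 10 of 10 were higher in B, with a summed FPKM of 678 in A1 and 664 in A2 and of 2535 in B1 and 3350 in B2. All 10 neural progenitor markers were at 1 FPKM or more, and their sum, which is led by the fatty acid binding protein gene *Fabp7*, was 21050 in A1 and 23127 in A2 and 10114 in B1 and 10873 in B2. Without *Fabp7* the sum was 4250 and 4570 in the A libraries and 3594 and 5388 in the B libraries, a sum led by *Vim* (2882 and 3171, then 2652 and 4458). The other 8 markers summed to 1368 and 1399 in the A libraries and to 942 and 929.6 in the B libraries, both lower. This sum was led by *Sox2* (575 in A and 381 in B) and *Hes5* (398 in A and 180 in B). Of the 8, 4 had both A libraries above both B libraries, while *Nes*, *Prom1* and *Slc1a3* had higher means in B. The 5 microglia and 5 endothelial markers were below 1 FPKM by their means. In such bulk libraries, fewer cells of a type and less RNA per cell cannot be told apart.

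The *Zfp* genes lay in a narrower range of levels than all genes of the tables. Their median was 9.52 FPKM (10.3 in replicate A and 9.33 in replicate B), with an interquartile range from 4.09 to 18.6 FPKM, a ratio of 4.55. All genes had a median of 3.83 FPKM and an interquartile range from 0.0523 to 22.8 FPKM. Among genes at 1 FPKM or more the order of the medians was the opposite, with 10.4 FPKM for the 169 *Zfp* genes and 16.6 FPKM for all 10481 genes. In that set, 50.3% of the *Zfp* genes and 63.3% of all genes were at 10 FPKM or more.

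**Figure D1:**
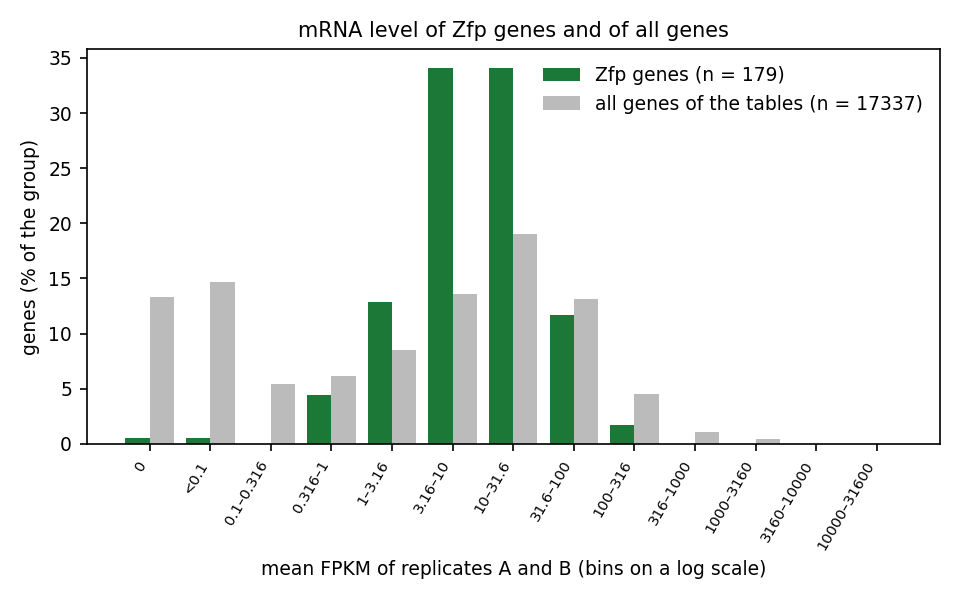
Share of genes (% of each group, vertical axis) in bins of the mean FPKM of replicates A and B (horizontal axis, bins on a log scale), for the 179 Zfp genes (green) and all 17337 genes (grey). The bins from 3.16 to 10 and from 10 to 31.6 FPKM each held 34.1% of the Zfp genes, while the bin at 0 held 0.56% of them and 13.3% of all genes.

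The distribution was alike in the single libraries. From A1 to B2, the number of *Zfp* genes above 0 was 178, 177, 177 and 175, and the number at 1 FPKM or more was 171, 169, 167 and 167. The median was 9.85 and 10.1 FPKM in the A libraries and 9.40 and 8.78 in the B libraries. A related set of transcription factor genes, the 36 *Zbtb* genes, which join zinc fingers to a BTB dimerisation domain, had 29 genes at 1 FPKM or more (80.6%) and a median of 4.24 FPKM. The 5 *Zscan* and *Zkscan* genes, whose proteins join zinc fingers to a SCAN domain, had 4 genes at 1 FPKM or more and a median of 18.5 FPKM. Both sets were taken by listed name. *Zfp238*, *Zfp161* and *Zfp295*, now *Zbtb18*, *Zbtb14* and *Zbtb21*, were therefore counted as *Zfp* genes. So were *Zfp498*, *Zfp192* and *Zfp167*, now *Zscan25*, *Zkscan8* and *Zkscan7*. Their means of 9.20, 6.07 and 3.12 FPKM lie below 18.5, so the medians hold for listed names only.

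The 10 *Zfp* genes with the most mRNA included regulators of transcription, of mRNA decay and of the spindle. *Zfp219* was the highest member, at rank 475 of all genes. It encodes a zinc finger transcription factor known as a partner of SOX9, and lies on the minus strand of chromosome 15 of rn6, between 28402413 and 28406046. It was measured at 239 and 223 in the A libraries and 191 and 144 in the B libraries, a mean of 199 ± 44.7. Both A libraries were above both B libraries. The listed span of *Zfp219* overlaps *Arhgef40* on the other strand, and the library kit was not named as one that keeps strand, so reads of the overlap cannot be told apart.

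*Zfp385a* was the next member by its mean. It encodes an RNA-binding protein that also acts with p53, and lies on the minus strand of chromosome 7 from 144939623 to 144966364. Its FPKM was 100 and 108 in the A libraries and 177 and 257 in the B libraries, a mean of 160 ± 79.7. The order of these 2 genes was reversed in replicate B, where *Zfp385a* was at 217 and *Zfp219* at 168 FPKM, so their order by the mean was within the spread between replicates. *Zfp385b* and *Zfp385d*, which share the name and the matrin-type finger, were at 0.534 and 0.373 FPKM.

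The third to the sixth member were *Zfp36l1* (102.3 ± 7.54 FPKM), *Zfp428* (99.98 ± 17.2), *Zfp513* (98.5 ± 24.1) and *Zfp637* (89.3 ± 2.47). Neighbours among these differed by less than the larger SD of the pair. *Zfp513*, known as a regulator of retinal genes, was at 132 and 98.99 in the A libraries and at 91.6 and 71.3 in the B libraries. *Zfp207* followed at 80.6 ± 7.22 FPKM, *Zfp36l2* at 80.1 ± 18.99, *Zfp579* at 72.9 ± 3.001 and *Zfp414* at 66.2 ± 4.14. The listed span of *Zfp207* overlaps those of *Mir632* and *Rnf135* on the same strand.

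**Figure D2:**
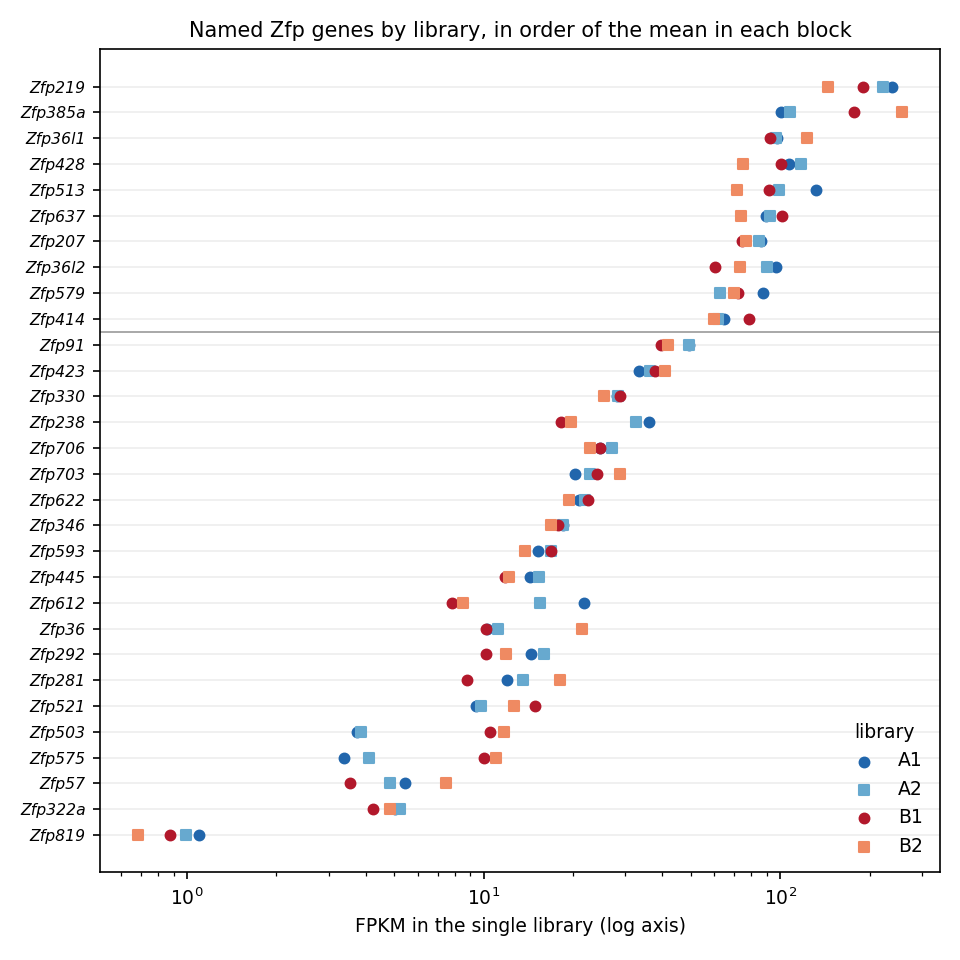
FPKM (horizontal log axis) of the named Zfp genes in the 4 single libraries (blue A1 and A2, red and orange B1 and B2; circles are technical library 1, squares library 2), with the 10 highest members above the grey line. The B libraries of Zfp503, Zfp575 and Zfp385a lie to the right of the A libraries, and those of Zfp612 to the left.

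The genes of the *Zfp36* family, whose proteins bind AU-rich elements and trigger decay of the mRNA, differed in level among themselves. *Zfp36l1* was at 97.5 and 96.4 FPKM in the A libraries and 92.4 and 123 in the B libraries. *Zfp36l2* was at 97.0 and 90.02 in the A libraries and 60.3 and 73.1 in the B libraries. These are sums over 2 listed loci of nearly equal length, on chromosome 6 (28.2 to 45.1 FPKM) and chromosome 7 (32.1 to 51.9 FPKM), between which reads of near-identical sequence could have been split, so the level is uncertain. *Zfp36*, which encodes tristetraprolin, was lower at 10.2 and 11.2 in the A libraries and 10.2 and 21.5 in the B libraries. The B2 library alone stood above the others for *Zfp36*.

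The machinery that these proteins recruit was listed with 17 of the 21 CCR4-NOT and mRNA decay symbols looked for. Of these, 16 were at 1 FPKM or more, and the median of all 17 was 18.3 FPKM. The highest was *Cnot8*, a catalytic deadenylase subunit, at 47.8 ± 5.84 FPKM, and the lowest was the decapping enzyme gene *Dcp2* at 0.548 ± 0.0816. The scaffold subunit gene *Cnot1* was at 15.7 ± 0.859 FPKM. By the rule for differing genes given below, 0 of the 16 at 1 FPKM or more were counted, beside 6.2% of all genes.

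Of 12 *Zfp* symbols looked for from neural development, 6 were listed and all 6 were at 1 FPKM or more. Symbols not found need not be absent genes. *Zfp191*, whose current symbol is *Zfp24*, was not among the 6 and had a mean of 15.6 FPKM. *Zfp423*, a cofactor in BMP signalling, was the highest at 33.4 and 36.4 FPKM in the A libraries and 37.7 and 40.96 in the B libraries. *Zfp238*, now named *Zbtb18*, encodes a repressor needed for the differentiation of cortical neurons. It was at 36.0 and 32.6 in the A libraries and 18.2 and 19.7 in the B libraries, with both A libraries above both B libraries. *Zfp703* was at 24.0 ± 3.39 FPKM, and *Zfp292* at 13.1 ± 2.97. *Zfp521*, which promotes the neural fate of stem cells, was at 9.44 and 9.76 in the A libraries and at 14.9 and 12.7 in the B libraries. *Zfp503*, a close relative of *Zfp703* that encodes a repressor, was the lowest at 7.46 ± 5.17.

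Of 10 *Zfp* symbols looked for from pluripotency, imprinting and silencing of retroelements, 5 were listed and 4 were at 1 FPKM or more. *Zfp445* and *Zfp57*, whose KRAB zinc finger proteins keep imprinted regions methylated, were at 13.4 ± 2.04 and 5.33 ± 0.269 FPKM. *Zfp57* overlaps *Mog* on the other strand. *Zfp281*, a regulator of pluripotent cells, was at 11.98 and 13.5 in the A libraries and 8.81 and 18.1 in the B libraries. The B libraries of *Zfp281* thus spanned both A libraries. *Zfp322a* was at 4.84 ± 0.422 and *Zfp819* at 0.913 ± 0.188 FPKM.

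The corepressor genes on which KRAB zinc finger proteins depend had a higher median level than the *Zfp* genes. Of 21 such symbols looked for, 14 were listed, all 14 were at 1 FPKM or more, and their median was 52.3 FPKM. *Trim28* was the highest, at 184 and 152 in the A libraries and 199.6 and 163 in the B libraries. *Cbx3* and *Cbx5*, which encode heterochromatin proteins, were at 156 ± 11.98 and 63.5 ± 2.69 FPKM. *Setdb1*, the histone methyltransferase of the complex, was at 33.2 ± 5.81 FPKM, and *Dnmt1*, the maintenance DNA methyltransferase, at 17.5 ± 2.77. *Uhrf1*, which guides *Dnmt1* to replicated DNA, was the lowest at 4.15 ± 1.76 FPKM. By the same rule 0 of the 14 were counted as differing, beside 6.2% of all genes.

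*Zfp* genes with roles in RNA binding, ribosome assembly and the spindle were all well above 1 FPKM. Of 10 symbols looked for, 8 were listed and all 8 were at 10 FPKM or more, with a median of 26.2 FPKM. After *Zfp385a* and *Zfp207*, *Zfp91*, a ubiquitin ligase gene, was at 44.9 ± 5.96 FPKM. *Zfp330*, which encodes a nucleolar protein, was at 27.7 ± 0.722, and *Zfp706* at 24.8 ± 1.44. *Zfp622* and *Zfp593*, whose proteins act in the maturation of the large ribosomal subunit, were at 21.2 ± 0.399 and 15.7 ± 0.546, the former with the lower coverage per FPKM given above. *Zfp346*, which encodes a protein that binds double-stranded RNA, was at 17.9 ± 0.810. *Zfp385a* was higher in B, as given below. None of the other 7 genes met the rule for differing genes, beside 6.2% of all genes. Their difference, B minus A, on the log2(FPKM + 1) scale lay between -0.27 for *Zfp91* and -0.04 for *Zfp622*. Both A libraries were above both B libraries in 3 of the 8, *Zfp91*, *Zfp207* and *Zfp346*, beside 32% of all genes.

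The 10 members below 1 FPKM included 8 with a low signal in every library. *Zfp93* was at 0.375 FPKM, *Zfp597* at 0.591, *Zfp458* at 0.643, *Zfp951* at 0.699 and *Zfp709l1* at 0.983, beside *Zfp385b*, *Zfp385d* and *Zfp819* above. *Zfp709*, from which *Zfp709l1* takes its name, was at 5.17 FPKM. *Zfp352*, on chromosome 5 of rn6 from 110325096 to 110326940, was the only member listed at 0 in all 4 libraries. *Zfp474* was listed at 0 in A2, B1 and B2 and at 0.00565 FPKM in A1. Its span overlaps *Lox* on the other strand.

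Listings of 0 in single libraries met 2 expressed members. *Zfp74* was at 6.04 FPKM in A1, 5.91 in A2 and 5.31 in B1 and was listed at 0 in B2. *Zfp7* was at 2.48, 1.71 and 2.19 FPKM and also listed at 0 in B2. Both have very long listed spans, of 439469 bp on chromosome 1 and 544556 bp on chromosome 7. A long span did not always go with a listing of 0. *Zfp37* (679688 bp) was at 1.62 FPKM in B2 and *Zfp382* (375995 bp) at 4.53. Over all genes, 18 were listed at 0 in B2 with at least 1 FPKM in each of the other 3 libraries, beside 1 gene at 0 in A2. A listing of 0 can be a failed estimate, so these values are not read as absence of the mRNA.

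Replicates A and B were compared to see which members vary between cultures of the same kind. A gene was counted as differing when its mean was at least 1 FPKM, its difference on the log2(FPKM + 1) scale was at least 1, a scale that understates the change of low genes, and the libraries of A and B did not overlap. Of the 169 *Zfp* genes at 1 FPKM or more, 3 were higher in B by this rule (1.78%), beside 4.78% of all 10481 genes. In the other direction 1 was higher in A (0.592%), beside 1.42% of all genes. Both shares of the members were below those of all genes, and 153 members (90.5%) lay within 0.58 of equality, beside 83% of all genes. With a difference of at least 0.58 as the threshold, 4 members were higher in B (2.37%), beside 9.51% of all genes, and 12 were higher in A (7.1%), beside 6.95%. The 12 include *Zfp74*, which is listed at 0 in B2, and 11 (6.51%) remained without it.

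The 3 members higher in B were *Zfp503*, *Zfp575* and *Zfp385a*. *Zfp503* was at 3.75 and 3.85 FPKM in the A libraries and 10.5 and 11.7 in the B libraries, a difference of 1.33 on the log2(FPKM + 1) scale and a ratio of 2.92. *Zfp575*, on the minus strand of chromosome 1 from 81447987 to 81450094, was at 3.37, 4.10, 10.01 and 11.04 FPKM in the same order, a difference of 1.28 and a ratio of 2.82. In both genes the gap between the replicates was far larger than that between technical libraries. *Zfp385a* differed by 1.05 on the same scale, a ratio of 2.08. On that scale B2 was 0.53 above B1, and B1 was 0.81 above A1 and 0.71 above A2. Without B2 it was not counted as differing, which left 3 members. The mesenchymal and meningeal markers had the same direction, 9 of 10 being counted as higher in B. Their part in these differences was not tested.

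*Zfp612* was the member higher in A. It lies on the minus strand of chromosome 19 from 41556907 to 41570352, and its FPKM was 21.8 and 15.5 in the A libraries and 7.82 and 8.50 in the B libraries. The difference was -1.10 on the log2(FPKM + 1) scale, B minus A, and the level in A was 2.28 times that in B. Of the 10 neural progenitor markers, 6 were lower in B and 4 higher, and *Fabp7* and *Hes5* were counted as higher in A. Their part in this difference was not tested.

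Small differences of the *Zfp* genes lay mostly in the direction of lower values in B. The median difference, B minus A, was -0.16 on the log2(FPKM + 1) scale, with an interquartile range from -0.34 to 0.02, beside a median of -0.03 over all genes. Of the 169 members, 125 (74%) were lower in B, beside 53.2% of all genes. Both A libraries were above both B libraries in 93 members (55%), beside 32% of all genes. The opposite order was found in 20 members (11.8%), beside 28.1% of all genes. With the libraries rescaled by the median ratio the members' median was -0.14 and that of all genes -0.01, and without B2 they were -0.15 and -0.02. Without B2, 109 members (64.5%) were higher in A without overlap, beside 43.8% of all genes, and 39 (23.1%) were higher in B, beside 40.3%. Mesenchymal markers were higher in B in 10 of 10 cases and oligodendrocyte lineage markers in 4 of 5, of which *Pdgfra* was counted as higher in B at a difference of 2.55. *Mbp* and *Cspg4*, the latter below 1 FPKM, were higher in B without overlap, and the libraries of *Olig2* overlapped. *Sox10*, also below 1 FPKM, had both A libraries above both B libraries, so the lineage markers did not move as a set. Of the 6 neuron markers, 4 were lower in B, with a median difference of -0.26, and *Dcx*, *Rbfox3* and *Map2* had both A libraries above both B libraries. The part of these markers and of the progenitor markers in the shift was not tested.

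**Figure D3:**
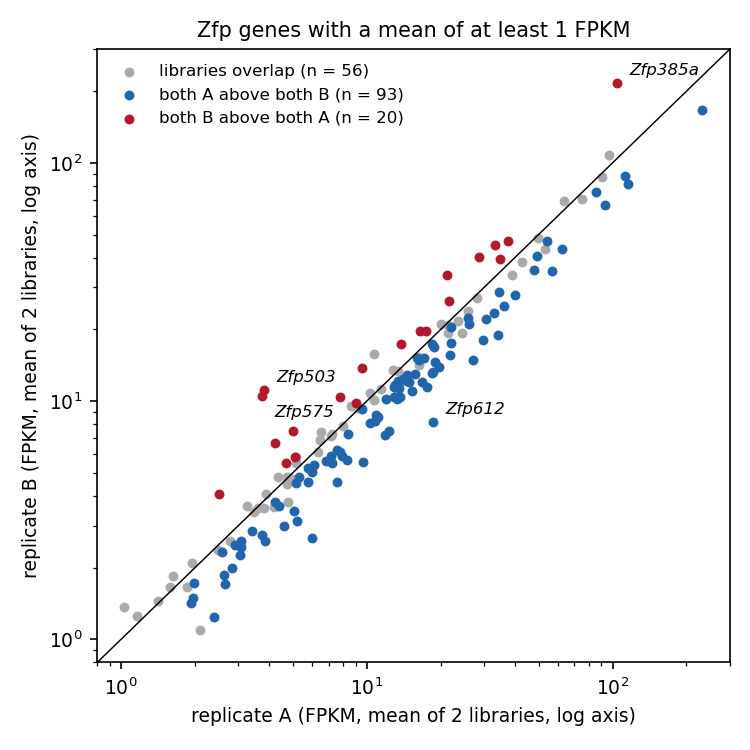
FPKM in replicate A (horizontal log axis) and replicate B (vertical log axis), each the mean of 2 technical libraries, for the 169 Zfp genes that averaged 1 FPKM or more; the line marks equal levels. Blue points (both A libraries above both B libraries, 93 genes) lie below the line, red points (the opposite, 20 genes) above it, and the 4 genes counted as differing are named.

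A listed duplicate locus bears on 1 of these comparisons. *Zfp14* is listed on chromosome 1 (88350361 to 88367370, minus strand) and again on chromosome 19 (14479600 to 14496609, plus strand), with the same length of 17010 bp. The chromosome 1 locus alone was at 5.12 and 4.78 FPKM in the A libraries and 3.85 and 3.66 in the B libraries, lower in B. The chromosome 19 locus was at 0.0847 and 0 in the A libraries and at 3.77 and 3.66 in the B libraries, so the sum over both was higher in B. Taken by locus, *Zfp14* was thus lower in B at chromosome 1 and higher in B at chromosome 19. The chromosome 19 locus met the rule for differing genes, with a difference of 2.18 on the log2(FPKM + 1) scale and a mean of 1.88 FPKM, so 5 loci in place of 4 genes were counted. The loci have equal length and nearly equal levels in B1 and in B2, and reads of near-identical sequence could have been split between them, so both directions by locus and the call are uncertain.

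Technical libraries of 1 replicate were close for most members. The median absolute difference between libraries on the log2(FPKM + 1) scale was 0.098 for the A libraries and 0.19 for the B libraries, beside 0.22 between the replicate means. *Zfp692* was an exception of another kind. It was at 63.9 FPKM in A1 and 63.4 in B1 and at 35.9 in A2 and 33.4 in B2, so the libraries paired by their technical number and not by replicate. This pattern, with a difference of at least 0.58 between library numbers and no overlap, was met by 3 members (1.78%), *Zfp692*, *Zfp653* and *Zfp7*, beside 170 of all genes (1.62%). *Zfp7* met it through its listing of 0 in B2. It was looked for after the values were seen.

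*Zfp* genes often arose by tandem duplication and many lie in runs along the chromosomes. In rn6, 64 of the 179 (35.8%) had another *Zfp* gene within 100 kb, in 21 runs. Chromosome 1 held 42 members, which is 1.78% of its 2366 listed genes, and chromosome 18 held 8, which is 1.98% of its 405. The median level was 6.75 FPKM for members with a near neighbour and 11.4 FPKM for the 115 without one. At least 10 FPKM was reached by 39.1% of the former and 52.2% of the latter. The order was the same in replicate A (7 and 11.4 FPKM) and replicate B (6.53 and 10.4 FPKM). Genes of 1 run share ancestry and are not independent, so this is given as a description.

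Levels within a run varied widely. The run with the most members, on chromosome 4 from 77497158 to 77747070, held *Zfp786*, *Zfp398*, *Zfp282*, *Zfp956*, *Zfp777* and *Zfp746*, and their means ranged from 1.68 to 20.4 FPKM. A run on chromosome 1 from 80920745 to 81152384 with *Zfp180*, *Zfp112*, *Zfp111*, *Zfp61* and *Zfp94* ranged from 3.69 to 34.6 FPKM. Other runs were uniformly low. *Zfp51*, *Zfp53* and *Zfp52* on chromosome 1 were between 1.62 and 2.43 FPKM, and the 5 genes from *Zfp799* to *Zfp563* on chromosome 7 were between 2.46 and 5.50 FPKM. *Zfp428* and *Zfp575*, 65.9 kb apart, stood at 99.98 and 7.13 FPKM.

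**Figure D4:**
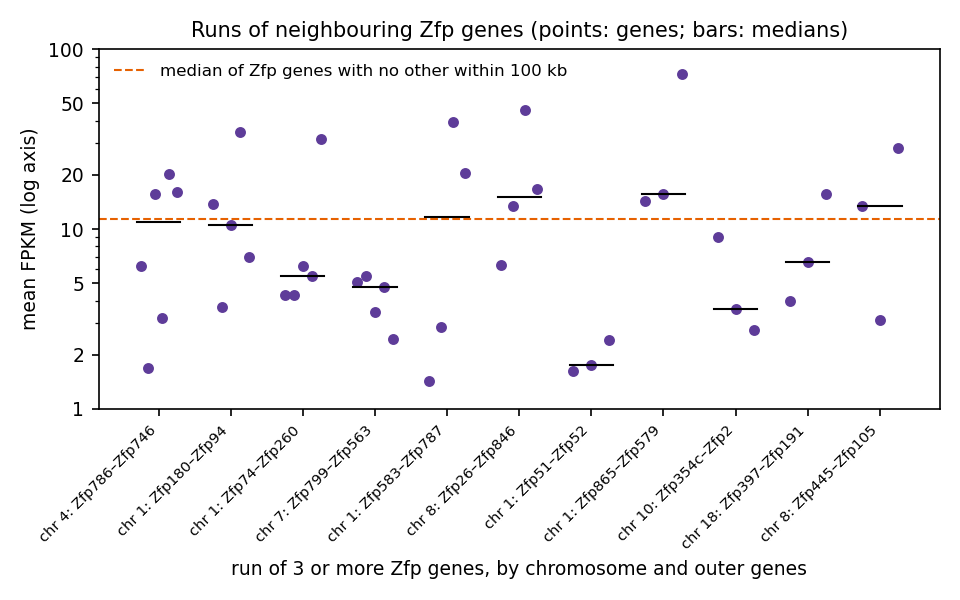
Mean FPKM (vertical log axis) of the Zfp genes in the 11 runs of 3 or more members, each gene within 100 kb of the next, ordered by the size of the run (horizontal axis, chromosome and outer genes); points are genes, bars their medians, and the dashed line is the median of the 115 Zfp genes with no other within 100 kb, 11.4 FPKM. Within the chromosome 4 run the genes range from 1.68 to 20.4 FPKM, while the run of Zfp51, Zfp53 and Zfp52 lies between 1.62 and 2.43 FPKM.

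Closeness to other genes was counted for members and for all genes. A divergent neighbour with a start within 1 kb was found for 4 members (2.23%), beside 6.52% of all genes. A gene overlapping on the same strand was found for 9 members (5.03%), beside 6.66% of all genes, and on the other strand for 10 members (5.59%), beside 7.97%. These counts depend on the listed spans of *Zfp74*, *Zfp382*, *Zfp7* and *Zfp37*, each of 375995 bp or more. Such spans enter the same-strand overlaps of these genes and *Zfp260*. They also enter the other-strand overlaps of *Zfp74*, *Zfp382*, *Zfp7*, *Zfp14* and *Zfp566*.

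Promoter windows like those shown above were available for 145 of the 179 members (81%), taking the first start listed where a gene had several. CG dinucleotides are depleted from most of the genome by methylation and kept in CpG islands, and the ratio of the observed to the expected CG count is a usual measure of this. A ratio of at least 0.6 was found in 97 of the 145 windows (66.9%), beside 54.8% of the 13401 listed genes with a window. Among all listed genes the share was 76.2% for those at 1 FPKM or more and 18% for those below. For the *Zfp* genes it was 75.3% of 73 at 10 FPKM or more, 62.5% of 64 between 1 and 10 FPKM, and 25% of 8 below 1 FPKM. *Zfp352* and *Zfp474*, the members with the lowest means, had ratios of 0.0649 and 0.112. A low ratio was also found in members with more mRNA. Of the 48 members with a ratio below 0.6, 18 were at 10 FPKM or more, as were 7 of the 10 members with 3 or fewer CG dinucleotides. Among the latter was *Zfp467* at a ratio of 0.0549. The windows were placed on RefSeq starts, and the paper reports many start sites in these cells away from the RefSeq position in rn6. Whether the windows cover the starts used in these cells was not tested.

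**Figure D5:**
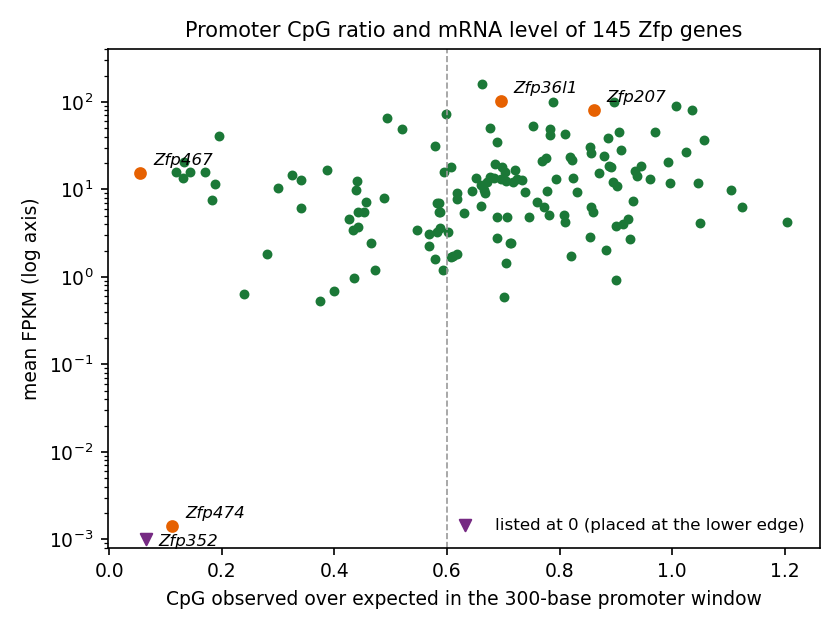
Ratio of observed to expected CG dinucleotides in the 300-base promoter window (horizontal axis; the dashed line marks 0.6) and mean FPKM (vertical log axis) of 145 Zfp genes; the triangle marks a gene listed at 0, and orange points are the other genes named. Zfp352 and Zfp474 lie alone at the lower left, with ratios of 0.0649 and 0.112, while genes on both sides of the line reach 10 FPKM or more.

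Short promoter motifs were searched by exact letters on both strands of the same windows, and matches of different motifs may overlap. The NRF1 motif GCGCATGCG was found in 6.9% of the 145 member windows, beside 2.39% of the windows of listed genes. The ETS motif CCGGAAGT was found in 10.3% and 5.97%, and the YY1 motif AAGATGGC in 7.59% and 4.24%. *Zfp207*, shown above, is among the 11 members with the latter. The TATA box TATAAA was found in 8.97% and 11.8%, the GC box GGGCGG in 46.2% and 49.8%, and the CCAAT box CCAAT in 40% and 37.9%. The CRE motif TGACGTCA was found in 2.76% and 2.58%, and the E-box CACGTG in 6.9% and 7.85%. The windows of listed genes include 4924 of genes below 1 FPKM, whose median CG ratio was 0.261, beside 0.696 for the members. No share was computed for genes at 1 FPKM or more, so whether members differ from other expressed genes was not tested. These matches are a description of the letters and were not tested as binding sites.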

How the data were processed

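Rat cortical neural progenitors were profiled by polyA RNA-seq in 2 biological replicates with 2 technical libraries each. Per the labels and methods, the authors aligned reads to rn6 with STAR and deposited 1 table for each library with coverage (signal, mean read depth), FPKM and TPM per gene, laid out as StringTie does. Another counter is named in the methods as the source of FPKM. Tool versions were not given in the sources used here. The 2 Start-seq samples were not used here.

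Rows that share a gene name were added up, giving 179 members in 182 rows per library. Technical libraries were averaged within replicates A and B, and means are given with SD over n = 2. Grouping followed the sample titles. Depth was judged by coverage per FPKM. A pseudocount of 1 was used on the log2 scale.

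The members and gene lists were chosen with earlier results of these data known. Genes of the lists were looked for by symbol. A gene can have several symbols, so the symbols not listed are not a count of absent genes. The genes named were the 10 highest members, those counted as differing, listed members of the gene lists, members at 0, and the highest and lowest of the other lists. *Zfp93*, *Zfp597*, *Zfp458*, *Zfp951*, *Zfp709*, *Zfp14*, *Zfp260*, *Zfp467*, *Zfp697*, *Zfp653* and *Zfp692*, the genes of the runs, the further corepressor and decay genes, and the promoters printed were chosen after the values were seen. RefSeq promoters (GRCr8) were matched by symbol for 170 members and by an older symbol for 8, with 1 unmatched. The promoter coordinates are of GRCr8 and all others of rn6. Alternatives were other thresholds, TPM, median ratio scaling, single rows, and libraries or replicates left out. Python 3.11.15, pandas, numpy and matplotlib were used.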

Additional observations from a re-analysis of the deposited data

Results flagged for a closer look

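Among 36 sets of 4 library values examined (33 named genes and 3 summaries over the members), 3 had a library far from the others by Dixon's criterion, and all 3 of these libraries were B2, the shallowest. Chance flags about 1 in 20 sets of 4 independent values, and these were 2 technical libraries of each of 2 replicates, so the rate may differ here. *Zfp36* was at 21.47 FPKM in B2, beside 10.17 to 11.22 in the other libraries. *Zfp36l1* was at 122.9 FPKM in B2, beside 92.35 to 97.48. *Zfp74* was listed at 0 in B2, beside 5.311 to 6.042 FPKM.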

How the results depend on the processing

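The median level of members without a *Zfp* gene within 100 kb was 1.683 times that of members with one. It was 1.563 within 50 kb and 1.734 within 500 kb, and 1.593 to 1.635 with 1 replicate left out. The median level of the members was 15.99 in TPM, a unit of another size, and 10.39 FPKM over members at 1 FPKM or more, and 9.329 to 10.32 FPKM with 1 replicate left out. With a minimum mean of 10 FPKM, 85 members passed, 2 were counted as differing in place of 4, beside 4.99% of all genes at that minimum. By fewer genes tested, 49 in place of 93 were higher in A without overlap (57.6%, beside 31% of all genes), and 11 in place of 20 higher in B (12.9%, beside 27.4%). With a log2 difference of at least 0.58, 16 were counted as differing (9.51% of all genes were higher in B and 6.95% higher in A). Without B2, 39 were higher in B without overlap, by fewer samples, and *Zfp385a* was not counted as differing. In TPM the median log2 difference, B minus A, was -0.2146. That of all genes was then -0.07, so members minus all genes was -0.14, beside -0.13 in FPKM. The other 39 of 53 alternative values of these 8 results kept their direction and lay within 1.5 times the count or within the spread between replicates. The alternatives for overlap, the median difference, averaging on the log2 scale, single rows as to differing genes, and other promoter starts were chosen after seeing the data. The planned comparison by KRAB letters and the protein identities were not run, since no protein table was used here. No paired analysis was possible because the result comes from no test. With 2 replicates and a shallow B2, differences between neighbouring levels were often within the spread.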
